A study of Rattus norvegicus with 2 samples.

Results

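Car1, Car2, Blvrb, Bpgm and Alox15 encode 5 enzymes that are abundant in red blood cells (RBCs) or in reticulocytes, their youngest circulating form. They were chosen by gene symbol among the 15037 genes that carry a symbol on the array, each was represented by 1 transcript cluster, and all 5 were measured. A transcript cluster is the set of short probes that stands for the transcripts of a gene. Spleen RNA of a group injected daily with cocaine (50 mg/kg, intraperitoneally, for 7 days) and of a control group was hybridized to Clariom S arrays, 1 array per group. The study's methods do not state whether an array held RNA of 1 rat or pooled RNA of several. The study used male Sprague-Dawley rats, 6 weeks old at the start and sampled 24 h after the last dose. The control sample is titled as not stimulated, its treatment label repeats the cocaine dosing, and the study's methods state that control rats received saline, so its title was followed here. The samples are called cocaine spleen and control spleen below. Each group was measured on 1 array, so replicates are lacking and neither an error nor a p-value could be computed. Every difference below compares these 2 arrays only.

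RBCs carry carbon dioxide mainly as bicarbonate, and carbonic anhydrases catalyze the step between them. RBCs lack mitochondria and a nucleus when mature, live on glycolysis, and divert part of that pathway into 2,3-bisphosphoglycerate, which lowers the oxygen affinity of hemoglobin. Reticulocytes lose their mitochondria and remaining RNA as they mature, so that mRNA of these enzymes comes mainly from erythroblasts and reticulocytes rather than from mature RBCs. The spleen stores and clears RBCs, and in rodents it also makes them.

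The RefSeq promoter table (GRCr8 build) held 2 of the 5 genes, Blvrb and Bpgm; Car1, Car2 and Alox15 were not among its entries. The stretch upstream of the Blvrb start site is shown because it could be set beside the other promoters for the sequences that erythroid and general factors are known to bind. It is given on the plus strand, with matches to GGGCGG (read as CCGCCC) and to CACCC (read as GGGTG) in capitals.
Blvrb, chr1:91866008-91866257: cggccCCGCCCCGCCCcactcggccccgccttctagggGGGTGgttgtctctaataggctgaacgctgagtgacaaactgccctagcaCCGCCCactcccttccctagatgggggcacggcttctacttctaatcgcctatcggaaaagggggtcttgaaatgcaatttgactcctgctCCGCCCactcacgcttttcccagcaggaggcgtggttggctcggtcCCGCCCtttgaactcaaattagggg
For Bpgm, another start of the annotated gene lies further upstream, so only the 30 bases around each CCAAT match are shown, on the plus strand, with the match in capitals.
Bpgm, chr4:64107048-64107077: aactaccaccttATTGGtttaaccgtacgc
Bpgm, chr4:64107082-64107111: ttcttcactaaaCCAATcatagcctccctc
Bpgm, chr4:64107189-64107218: caatgctgctttCCAATacacagcgccatc

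The 250 bases upstream of the start site were searched on both strands in Blvrb, in Bpgm and in all 33469 promoters of the table. GGGCGG, the GC box known to bind Sp1, was found 5 times in Blvrb, with the pair farthest upstream sharing 1 base, and 1 time in Bpgm, and it was present in 30.5% of all promoters. CCAAT, which the factor NF-Y is known to bind, was found 3 times in Bpgm and 0 times in Blvrb, and was present in 34.0% of all promoters. CACCC, the core of the sites of Klf1, an erythroid transcription factor, was found 1 time in Blvrb and 0 times in Bpgm, and was present in 49.2% of all promoters. The longer CCACACCC, which contains CACCC, was found in neither gene and in 2.84% of all promoters. The GATA sequences AGATAA and TGATAA were found in neither gene, and in 10.3% and 7.97% of all promoters. These matches describe the letters of these windows only.

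All 5 genes had lower signals in the cocaine spleen than in the control spleen. The differences, cocaine minus control on the log2 scale, lay between -5.27 and -3.52, with a median of -5.02. In these 2 arrays, 5 of 5 were at least 2-fold lower, against 4.97% of all named genes, while 0 of 5 were higher by this factor, against 2.28%. At 8-fold, 5 of 5 were lower, against 0.612% of all named genes, and at 32-fold 3 of 5 were, against 0.126%. With signals under the highest background feature of the array raised to that feature, 5 of 5 were still at least 2-fold lower, against 3.68% of all named genes, and among the 7196 named genes with a signal above it on an array 8.87% were. The median difference over all named genes was 0.04. Since the genes were proposed with results of these arrays known, these counts describe them and are not a test. Of the named genes, 748 were at least 2-fold lower and 343 at least 2-fold higher; after centring on the 75th percentile of each array these counts were 657 and 509.

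**Figure D1:**
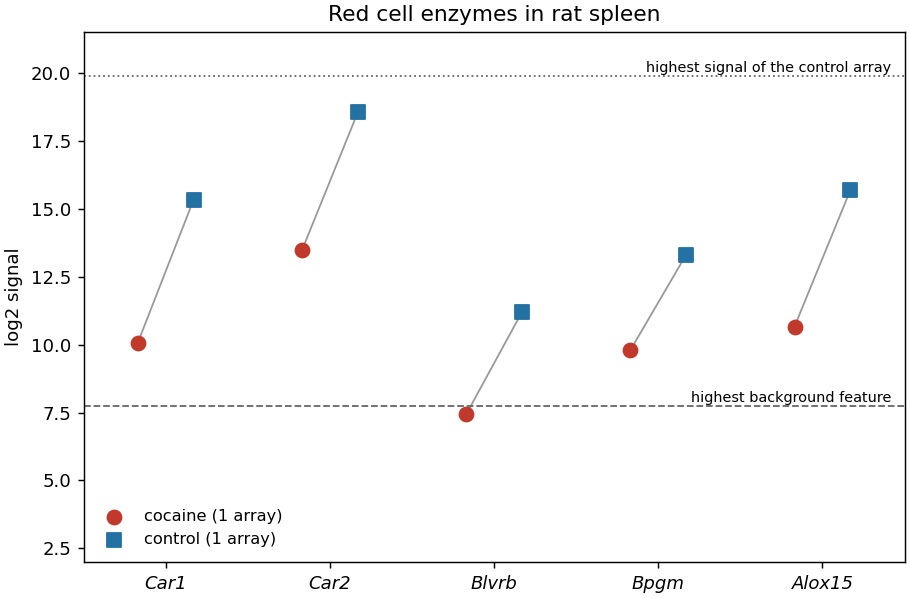
Log2 signal of the 5 genes in the cocaine spleen (circles, left of each pair) and the control spleen (squares), 1 array each, joined by lines; the dashed line is the highest background feature (7.76) and the dotted line the highest signal of the control array (19.89). Each circle lies below its square, and only the Blvrb signal of the cocaine spleen (7.43) is under the dashed line.

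Car1 encodes carbonic anhydrase 1, a cytosolic enzyme that is among the most abundant proteins of human RBCs after hemoglobin. Its log2 signal was 10.06 in the cocaine spleen against 15.33 in the control spleen, differing by -5.27. The signal of the cocaine spleen was thus 2.60% of that of the control spleen, or 38.5-fold lower. Both signals lay above the 23 background features of the array, the highest of which was 7.76 on both arrays and is called the background limit here. Car1 ranked 13 among the 15037 named genes from the lowest difference, and 19 among all 23188 transcript clusters.

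Car2 encodes carbonic anhydrase 2, the fast cytosolic form, which is also known from kidney, brain and osteoclasts. Its log2 signal was 13.47 in the cocaine spleen against 18.55 in the control spleen, differing by -5.08, or 33.8-fold lower. Car2 ranked 17. The signal of the control spleen lay 1.35 below the highest signal of its array, and a compression of the scale near that limit was not tested. In the cocaine spleen the Car2 signal lay 5.71 above the background limit on the log2 scale.

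Alox15 encodes the 12/15-lipoxygenase, which oxidizes fatty acids within membranes and is known from rabbit reticulocytes, where it acts on mitochondria during their removal. Eosinophils and some macrophages also make it. Its log2 signal was 10.67 in the cocaine spleen against 15.69 in the control spleen, differing by -5.02, or 32.5-fold lower. Alox15 ranked 18, next to Car2.

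Blvrb encodes biliverdin reductase B, an NADPH-dependent flavin reductase that can also reduce methemoglobin. Its log2 signal was 7.43 in the cocaine spleen against 11.20 in the control spleen, differing by -3.77, or 13.6-fold as deposited. The signal of the cocaine spleen lay under the background limit. With that signal raised to this limit the difference was -3.44, so that Blvrb was at least 10.9-fold lower. It was the only one of the 5 genes with a signal in this range, and it ranked 51.

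Bpgm encodes bisphosphoglycerate mutase, which makes 2,3-bisphosphoglycerate. Its log2 signal was 9.79 in the cocaine spleen against 13.31 in the control spleen, differing by -3.52, or 11.5-fold lower. Bpgm ranked 60. As deposited its difference was the smallest of the 5, but with the Blvrb signal raised to the background limit that of Blvrb was smaller (-3.44 against -3.52).

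The differences of Car1, Car2 and Alox15 lay close together, as did those of Blvrb and Bpgm. Car1 and Car2 differed from each other by -0.19 in their differences, which is 1.14-fold, Car1 and Alox15 by -0.24, and Car2 and Alox15 by -0.05. Blvrb and Bpgm differed by -0.25 as deposited and by 0.08 with the background limit, so that their order is not settled. Bpgm lay 1.75 above Car1, or 3.36-fold. Whether any of these gaps is larger than the spread between rats cannot be told with 1 array per group.

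**Figure D2:**
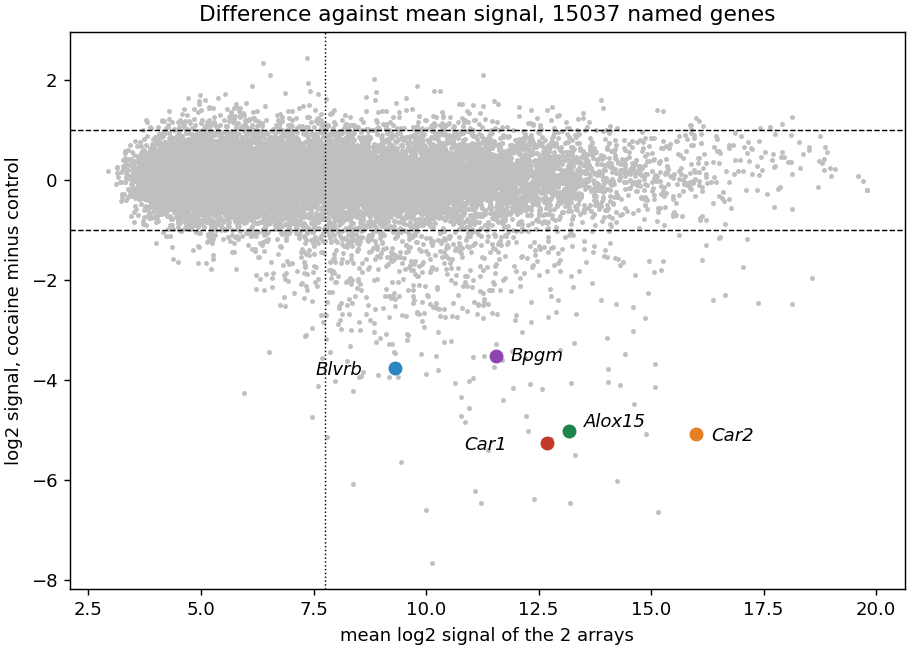
Difference in log2 signal (cocaine minus control, vertical axis) against the mean log2 signal of the 2 arrays (horizontal axis) for the 15037 named genes, with the 5 enzymes in color; the dashed lines mark 2-fold and the dotted line the background limit (7.76). The 5 enzymes lie between -5.27 and -3.52, below the lower line at 2-fold.

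Markers of the cells that are known to make these enzymes were set beside them. Of the 9 measured markers of erythroblasts and reticulocytes, 9 were lower by at least 2-fold as deposited (median difference -6.47) and 8 with signals raised to the background limit. The log2 of their summed signal was 14.11 in the cocaine spleen and 19.72 in the control spleen. That of the 5 enzymes was 13.88 in the cocaine spleen and 18.90 in the control spleen, most of it from Car2 (13.47 and 18.55). Differences of these markers reached from -7.67 for Epb42, protein 4.2 of the RBC membrane, to -4.10 for Tfrc, the transferrin receptor. Between them were Hemgn, a nuclear protein of blood-forming cells (-6.64), Rhag, the Rh-associated glycoprotein (-6.60), Ahsp, the chaperone of alpha-globin (-6.48), beta-spectrin (Sptb, -6.47), band 3 (Slc4a1, -6.03), the heme synthesis enzyme Alas2 (-4.49) and Klf1 (-4.27). The signals of Epb42, Rhag and Klf1 in the cocaine spleen were under the background limit, which leaves them at least 73.7-fold, 46.3-fold and 1.27-fold lower. Leaving Klf1 aside for this reason, the differences of Car1, Car2 and Alox15 lay within the range of the other 8 markers, and those of Blvrb and Bpgm were smaller than those of these 8. In whole spleen RNA, fewer cells of a type and less of an RNA per cell cannot be told apart.

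Macrophages, which can hold Alox15 and the enzymes of heme breakdown, had 11 measured markers, of which 0 were past 2-fold, with a median of -0.27. C1qa, a complement subunit, had a difference of -0.75, the receptor Csf1r one of -0.64, the arginase Arg1 one of 0.56 with both signals under the background limit, and Cd68, a lysosomal protein, one of -0.44. The log2 of the summed macrophage signal was 16.23 in the cocaine spleen and 16.31 in the control spleen. The adhesion molecule Vcam1 (0.35) made up much of that sum, and without it the values were 15.10 in the cocaine spleen and 15.57 in the control spleen, with 9 of 10 markers below 0. Of 7 eosinophil markers, only the receptor Ccr3 had both signals above the background limit. Its signal was 11.51 in the cocaine spleen against 11.67 in the control spleen, differing by -0.17. The lectin Siglec5 had a difference of -1.25 (7.39 in the cocaine spleen, under the background limit, which leaves it at least 1.85-fold lower). The other 5 had both signals under that limit, among them the granule proteins Epx and Prg2. The log2 of the summed eosinophil signal was 11.72 in the cocaine spleen and 11.98 in the control spleen, most of it from Ccr3. For osteoclasts, the other known source of Car2 that could be set beside it, 0 of 4 markers were past 2-fold. Calcr had a difference of 0.63 and Atp6v0d2 one of -0.31, each with both signals under the background limit. Ctsk had one of -0.85, with 7.17 in the cocaine spleen, under that limit, which leaves it at least 1.20-fold lower. Only Acp5 (0.79) had both signals above it, with 14.59 in the cocaine spleen and 13.80 in the control spleen. The log2 of the summed signal of the 4 markers was 14.60 in the cocaine spleen and 13.83 in the control spleen. Nearly all of this sum came from Acp5, so it describes that gene and not the set. Of 4 platelet markers 1 was at least 2-fold lower, the chemokine Ppbp (11.03 in the cocaine spleen against 13.16 in the control spleen, differing by -2.13), while Pf4 had a difference of -0.19. The log2 of the summed platelet signal was 13.53 in the cocaine spleen and 14.31 in the control spleen. For the lymphocytes that make up much of the spleen, 7 of 7 measured markers lay above the background features on both arrays and 0 were past 2-fold, with a median of 0.26. The log2 of their summed signal was 15.98 in the cocaine spleen and 15.44 in the control spleen. Among them Cd3d had a difference of 0.96, which was past 2-fold in 3 of 5 scalings, Cd79b one of 0.63, Cd3e one of 0.34 and Cd5 one of -0.27. The part of each cell type in the differences of the 5 enzymes was not tested.

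No difference like those of Car1 and Car2 was measured for the other carbonic anhydrases. Of 13 others, 0 were past 2-fold, and their median difference was -0.11. In 12 of these, including the membrane-bound Car4 (-0.13) and the cytosolic Car13 (-0.17), both signals were under the background limit, so that a difference could not be measured. Car3, a muscle form, was the exception, with 7.05 in the cocaine spleen against 7.96 in the control spleen, differing by -0.91, of which the lower signal was again under this limit. Only Car1 and Car2 of the family had both signals above it.

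Proteins that move carbon dioxide or bicarbonate beside carbonic anhydrase were split. Of 7 genes, 4 were at least 2-fold lower as deposited and 3 with the background limit, and 1 was higher by as much. Slc4a1, the anion exchanger that carries the bicarbonate made by Car2 out of or into the RBC, had signals of 11.24 in the cocaine spleen and 17.27 in the control spleen. Rhag and the water channel Aqp1 (-4.72), both known to pass gases through the RBC membrane, were also lower. Slc26a6, an anion exchanger of epithelia, had a difference of -1.03 with a signal of 7.28 in the cocaine spleen, under the background limit, and it was within 2-fold in 3 of 5 scalings. The sodium bicarbonate transporter Slc4a7 went the other way, with 12.80 in the cocaine spleen against 11.33 in the control spleen, differing by 1.46.

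In the reactions next to Blvrb, differences were smaller. Blvra, the reductase that makes bilirubin from the biliverdin of adult heme breakdown, had signals of 11.78 in the cocaine spleen against 13.03 in the control spleen, differing by -1.25, or 2.38-fold lower. The heme oxygenases Hmox1 (-0.37) and Hmox2 (-0.11), which open the heme ring, and their electron donor Por (-0.36) were within 2-fold. Blvrb and Blvra, which bear like names but belong to different protein families, thus differed by at least 2.19 in their differences, with the Blvrb signal raised to the background limit.

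Around Bpgm, Minpp1 and Hk1 were lower as well, while Pgam1 and Ldhb were higher. Of 19 other genes of glycolysis and 2,3-bisphosphoglycerate, 3 were at least 2-fold lower and 2 at least 2-fold higher (median difference 0.28). With the background limit 2 were lower, and Pgk1, a kinase of the main pathway (0.99), was also past 2-fold in 3 of 5 scalings. Minpp1, a phosphatase known to break down 2,3-bisphosphoglycerate, had signals of 9.87 in the cocaine spleen against 12.64 in the control spleen, differing by -2.76, or 6.79-fold lower. Pklr, the gene of the pyruvate kinase of RBCs and liver, had a difference of -2.35 with a signal of 5.66 in the cocaine spleen, under the background limit, which leaves it at least 1.20-fold lower. Hk1, the hexokinase of RBCs among other cells, was 4.15-fold lower (-2.05). Pgam1, the mutase of the main pathway and a relative of Bpgm, was higher, with 9.67 in the cocaine spleen against 8.57 in the control spleen, differing by 1.11. Ldhb, a lactate dehydrogenase subunit, had a difference of 1.07. Bpgm and Pgam1 thus had differences of opposite sign, under each of 5 scalings of the arrays.

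**Figure D3:**
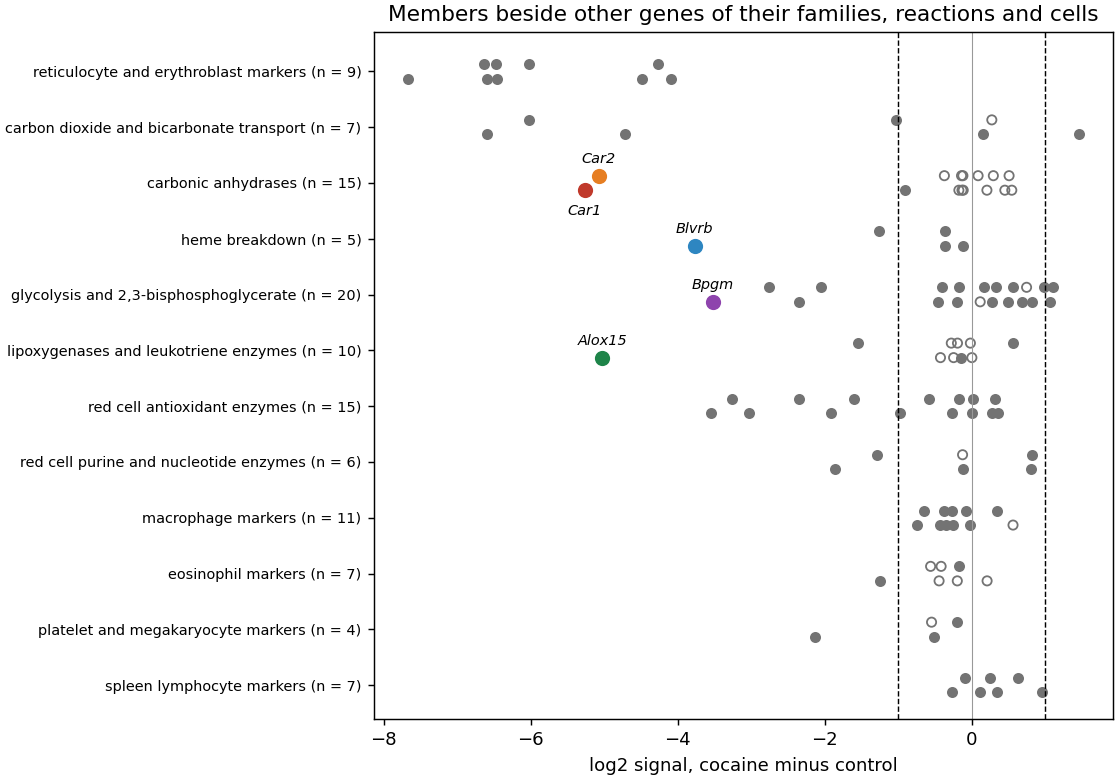
Difference in log2 signal (cocaine minus control, horizontal axis) of every measured gene of 12 lists, 1 point per gene, with the 5 enzymes named and in color; open circles had both signals under the background limit, and the dashed lines mark 2-fold. Car1, Car2, Blvrb, Bpgm and Alox15 have the lowest difference of the carbonic anhydrase, heme breakdown, glycolysis and lipoxygenase lists they belong to.

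Among lipoxygenases and leukotriene enzymes, Alox15 and Alox12 were at least 2-fold lower as deposited, and Alox15 alone with the background limit. Alox12, the lipoxygenase of platelets, had a difference of -1.55, with a signal of 6.45 in the cocaine spleen, under the background limit, which leaves it at least 1.19-fold lower. Over the 9 genes other than Alox15 the median difference was -0.19, and 6 of them, Alox5 (-0.42) and Alox15b (0.00) included, had both signals under this limit. Alox5ap (-0.14) and Lta4h (0.56), which serve leukotriene synthesis in leukocytes, were measured above it and were within 2-fold. Alox15 was thus the only lipoxygenase of the list with both signals above the background features.

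Other enzymes known from RBCs were lower in part. Of 15 measured genes of peroxide removal, glutathione synthesis and methemoglobin reduction, 6 were lower and 0 higher by at least 2-fold (median difference -0.58). Gclm, the modifier subunit of the first enzyme of glutathione synthesis, had signals of 9.27 in the cocaine spleen against 12.81 in the control spleen, differing by -3.54, close to that of Bpgm. Catalase (Cat, -3.27), peroxiredoxin 2 (Prdx2, -3.03), the catalytic subunit Gclc (-2.34), cytochrome b5 (Cyb5a, -1.92) and glutathione peroxidase 1 (Gpx1, -1.61) were also lower. Cyb5r3 of the same list (-0.98) was within 2-fold as deposited and past it in 1 of 5 scalings. Of 6 genes of purine and nucleotide turnover, 2 were at least 2-fold lower as deposited: Ampd3, the AMP deaminase of RBCs (-1.86, with 5.96 in the cocaine spleen, under the background limit, which leaves it at least 1.05-fold lower), and the pyrimidine nucleotidase Nt5c3a (-1.29). Over the 6 enzyme lists together, 13 of 66 genes other than the 5 (19.7%) were at least 2-fold lower, against 4.97% of all named genes, and the lowest of them was Gclm. With signals raised to the background limit, which takes out Pklr, Alox12 and Ampd3, 10 of 66 (15.2%) were, against 3.68%.

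The 5 genes lie at 4 places in the genome. In the gene order of the RefSeq annotation (GRCr8), Car2, Car3, Car1 and Car13 follow each other on chromosome 2. The cluster thus holds both of the lowered carbonic anhydrases with Car3 (-0.91) between them and Car13 (-0.17) after them, and Rbis, the next gene, had a difference of 0.62. Alox15 lies on chromosome 10 beside Alox12e (-0.19, both signals under the background limit) and Alox12, and on its other side Pelp1 had a difference of -0.24. Blvrb, on chromosome 1, has Sptbn4 (0.10) and Sertad3 (-0.76) as its neighbors, and Bpgm, on chromosome 4, has Akr1b7 (0.03) and Cald1 (0.36). Of the neighbors named, Car13, Pelp1, Sptbn4 and Akr1b7 also had both signals under the background limit, and Car3 and Sertad3 that of the cocaine spleen. Over the 4 genes on each side of the 5 enzymes, 25 other genes were measured. Of these, 1 of 25 (Alox12) was lower by at least 2-fold, which is close to the share among all named genes (4.97%). Higher by as much were 0 of 25, against 2.28% of all named genes. The differences of the 25 genes reached from -1.55 to 0.79. Both signals were under the background limit in 10 of the 25, so that no difference could be measured there. With signals raised to this limit 0 of 25 were past 2-fold, while 3.68% of all named genes were at least 2-fold lower.

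**Figure D4:**
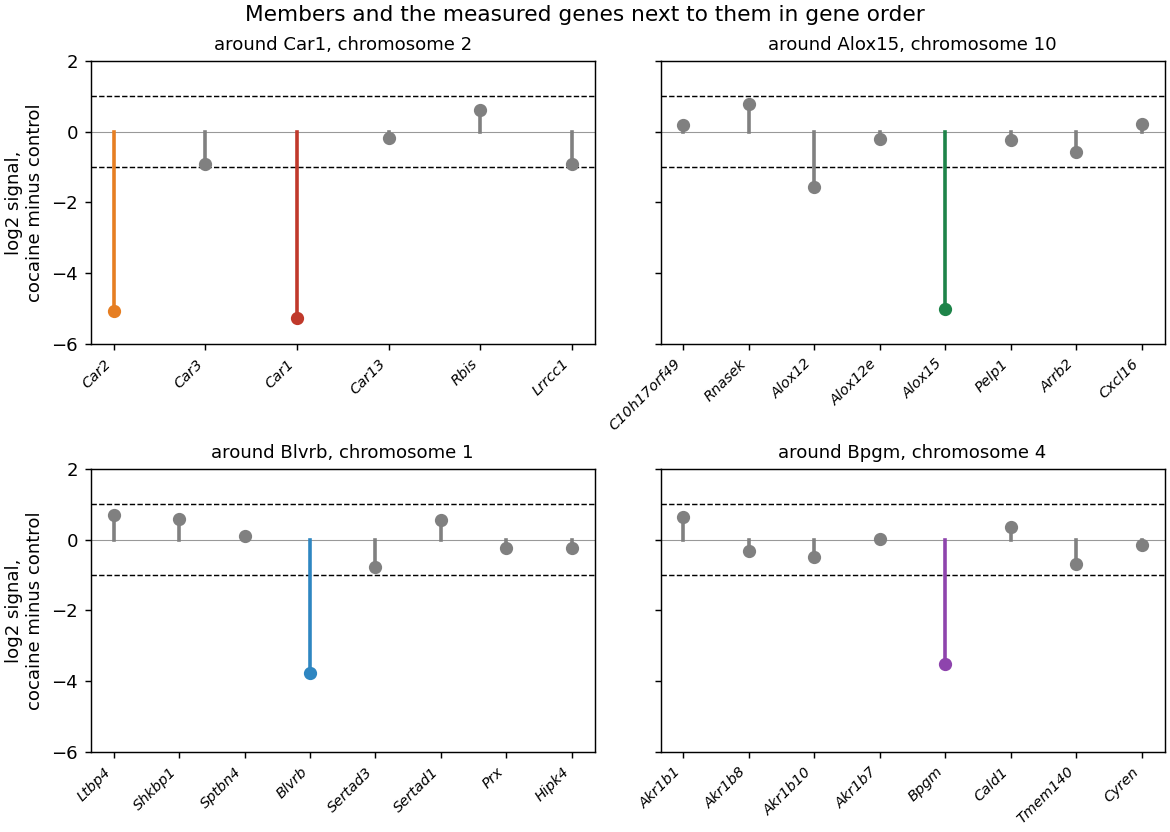
Difference in log2 signal (cocaine minus control, vertical axis) of the enzymes (color) and of the measured genes among the 4 on each side, in gene order but not to scale; the dashed lines mark 2-fold. Car1, Car2, Alox15, Blvrb and Bpgm stand between -5.27 and -3.52, while Alox12 (-1.55, with its lower signal under the background limit) is the only neighbor past 2-fold.

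The genes whose pair of signals was most like that of each enzyme were found by the distance between points in the plane of the 2 log2 signals, over the 2 arrays. For Car1 these were Rhd, the Rh blood group protein (distance 0.13), ferrochelatase (Fech, 0.64) and Alox15 (0.71). For Alox15 they were Lgals5, a galectin of rat reticulocytes (0.40), Rhd (0.58) and the cell cycle phosphatase Cdc25b (0.68). Car2 had no gene as near. Its nearest were Emb (1.45), the nuclear transport factor Xpo7 (1.58), whose difference of -5.09 was almost that of Car2, and the Y-box protein Ybx3 (1.63). For Blvrb, whose signal in the cocaine spleen was under the background limit like those of the 3 genes found, the nearest were the transcription factor Sox6 (0.15), Tmod1, which caps actin filaments of the RBC membrane skeleton (0.22), and Cdr2 (0.22), and for Bpgm they were the phosphatase Phlpp2 (0.16), Tfdp2, a partner of E2F factors (0.17), and asparagine synthetase (Asns, 0.19). Probes differ in how strongly they bind, so a like pair of signals does not mean a like amount of RNA.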

How the data were processed

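The authors isolated total spleen RNA with TRIzol and RNeasy columns with DNase I and hybridized it to Clariom S rat arrays. Log2 signals, 1 per feature and array, were deposited; the background correction and normalization behind them were not given in the sources used here. Of 24834 features, 1646 control features were left out. Of 23188 transcript clusters, 15049 carried a symbol of the platform annotation, and 15049 matched by Entrez identifier to RefSeq (0 symbols changed). They stood for 15037 genes, and 10 symbols with several clusters were represented by their brightest one on average. Some genes of the lists were not analysed here.

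Differences are cocaine minus control on the log2 scale, and 2-fold was the threshold, as in the study. The number of arrays, 1 per group, limits the precision, and no test between groups was possible. Signals under the highest background feature were raised to it for lower bounds. The 5 genes, the 13 lists beside them and the alternatives were chosen with earlier results of these data known. Named were the 5 genes; in each list the genes past 2-fold, or else up to 4 with the largest difference; relatives by family or reaction; and the 3 nearest genes by signal. Por, Pgk1, Cyb5r3, Vcam1, Alox5ap, Lta4h, the remaining markers and the neighbors in gene order were added with their values known. As alternatives served 5 scalings (median centring, 75th percentile centring, centring on clusters above both medians, quantile normalization, loess with a span of 0.3), floors, filters, other thresholds and the mean over clusters. The procedure was tested on simulated data. Python 3.11.15, numpy 2.4.6, pandas 2.3.3, statsmodels 0.14.6 and matplotlib 3.10.9 were used.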

Additional observations from a re-analysis of the deposited data

How the results depend on the processing

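No paired analysis was possible because each group has 1 array, and no replicate could be left out. All 5 enzymes were at least 2-fold lower under each of the 5 scalings, both floors, the mean over clusters and thresholds of 1.5-fold and 4-fold. Over the 8 alternatives that gave a difference, Car1 lay between -5.34 and -5.14, Car2 between -5.29 and -4.98, Alox15 between -5.11 and -4.93, Blvrb between -3.79 and -3.44 and Bpgm between -3.56 and -3.41. The count of named genes at least 2-fold higher (343) was 147 with signals raised to the background limit (the highest background feature), 222 among genes whose signal reached the median of an array, and 191 among genes above the background limit, which was chosen as a filter after seeing the data. Under the same settings the count of genes at least 2-fold lower (748) was 553, 680 and 638. The counts of lower and higher genes were 1765 and 1748 at 1.5-fold and 246 and 5 at 4-fold. Fewer genes at a stricter threshold follow from the threshold, but the split also changed. Of the genes past the threshold, 49.8% were higher at 1.5-fold and 1.99% at 4-fold. With 75th percentile centring 43.7% of genes past 2-fold were higher, against 31.4% as deposited, and with centring on clusters above both medians 42.3%. The scalings moved the median of all named genes by less than 0.1. Of the list medians under the alternatives, 129 moved by less than 1.5-fold and 5 by more. Over genes that exceeded the background limit on an array, the median was -5.08 for carbonic anhydrases (3 genes left, Car1 and Car2 included), -0.85 for lipoxygenases and leukotriene enzymes (4 genes) and -2.88 for carbon dioxide and bicarbonate transport (6 genes). Signals under the background limit restrict what can be said of Blvrb and of most other carbonic anhydrases and lipoxygenases.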
